A study of Mus musculus with 4 samples.

Results

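The interferon-inducible p200 family is a group of genes that lie side by side in the mouse genome and encode nuclear and cytosolic proteins that bind DNA or one another. The 8 members described here are Pyhin1, Ifi204, Ifi205, Ifi203, Ifi202b, Mnda, Mndal and Aim2, and all 8 were found by exact symbol among the 23281 genes of the deposited table. They were selected on their FPKM values, because several of them were high in the cultured cells and near 0 in the sorted cells, so that difference is given as a description, with no test.

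RNA was sequenced from 4 mouse libraries. The 3 libraries of horizontal basal cells (HBCs), the reserve stem cells at the base of the olfactory epithelium, came from wild-type mice and were grown in culture to passage 3, with no sort given. The single library of respiratory basal cells (RBCs), the stem cells of the neighbouring respiratory epithelium, came from microdissected tissue of KRT5-CreER;Ai9-fl(stop)TdTomato mice, sorted for TdTomato, a red reporter that Cre driven from the keratin 5 promoter switches on. Culture, tissue of origin, sorting and genotype thus differ together between the groups and cannot be told apart. The labels give neither the strain background nor the age of the mice. Whether separate animals gave rise to the 3 HBC libraries is not stated, so a p-value here reflects only how far these libraries differ, possibly for technical reasons.

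Most p200 proteins join a pyrin domain, which binds other pyrin domains, to 1 or more HIN domains, which bind DNA. Several of them are known in mouse or human cells as sensors of foreign or misplaced DNA, and several restrain cell growth. Many are transcribed when interferon activates transcription factors that act through short DNA elements near the start of their target genes.

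The promoters of the family are shown first because most of them share such an element. RefSeq windows of 250 bases before to 50 bases after the start site (build GRCm38.p6, whereas the deposited values refer to mm9) were matched for 7 of the 8 members and for 3 further p200 genes of the table. Ifi204 had no entry. Under RefSeq names, Pyhin1 is Ifi209, Mnda is Ifi211, AI607873 is Ifi207, Pydc3 is Ifi208 and Pydc4 is Ifi213. The interferon-stimulated response element was searched on both strands as GAAA, any 2 bases and GAAA again. In the stretches below, each read 5′ to 3′ on the strand of its gene, capitals mark the 10 bases of the element or, for Pyhin1, of its nearest match.
Mndal, chr1:173880199-173880238, minus strand: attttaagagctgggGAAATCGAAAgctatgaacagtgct
Ifi203, chr1:173942503-173942542, minus strand: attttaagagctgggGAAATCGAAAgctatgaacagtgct
Mnda, chr1:173913059-173913098, minus strand: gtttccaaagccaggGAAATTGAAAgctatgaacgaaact
Ifi205, chr1:174031865-174031904, minus strand: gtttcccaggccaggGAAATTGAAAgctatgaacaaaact
Pyhin1, chr1:173630765-173630804, plus strand: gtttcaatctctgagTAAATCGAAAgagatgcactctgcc
AI607873, chr1:173741826-173741865, minus strand: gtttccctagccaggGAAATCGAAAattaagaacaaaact
Pydc3, chr1:173673592-173673631, plus strand: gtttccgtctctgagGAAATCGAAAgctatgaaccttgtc
Pydc4, chr1:173599321-173599360, minus strand: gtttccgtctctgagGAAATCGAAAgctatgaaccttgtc

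The element was present in the windows of 4 of 7 members (Mndal, Ifi203, Mnda and Ifi205) and in those of all 3 further p200 genes. For comparison, it was present in 3.44% of all 32851 windows and in 18 of the 33 interferon-stimulated genes of a fixed list that had a window. In Mndal, Ifi203 and Mnda it began 36, 35 and 37 bases before the start site, and in Ifi205 it began 134 bases before it. On the opposite strand, Ifi205 held another instance 23 bases after the start site, and the other window of Mndal held one 54 bases before its start site. The 40 bases shown for Mndal and Ifi203 were identical. So were those shown for Pydc3 and Pydc4. Pyhin1 lacked an exact match on either strand, and the nearest match shown differed by 1 base, G1T, counted from 1 at the 5′ end of the element. Near matches were sought only before the start site on the strand of the gene, and another position there also had 1 mismatch. How many of all windows hold such a near match was not counted. The exact form GAAATCGAAA, looked up after the promoters had been read, stood in 16 windows of the whole table, and 7 of these 16 belonged to genes of the p200 cluster. GAAATTGAAA, the form in Mnda and Ifi205, stood in 38 windows, 2 of them of cluster genes. Both forms are instances of the element searched first.

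No instance of the element was found in the windows of Aim2 or Ifi202b. Ifi202b held the gamma-activated site, searched as TTCNNNGAA on both strands (8.30% of all windows), beginning 148 bases before the start site, and no other member did. TGANTCA, the AP-1 site, was found for Pyhin1, Mndal and Ifi203 (7.81% of all windows), and TATAAA was found for Pyhin1, Ifi202b and Ifi205 (13.6% of all windows). Mndal and Ifi203 have 2 windows each in the table, for different start sites, and the one with the element on the strand of the gene is shown. A match describes the letters in a window and is not shown to be a site in use.

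All levels below are depth-scaled FPKM. FPKM sets the fragments of a gene against transcript length and library size. The deposited values were divided by 1 factor per library because they appeared still to carry library depth, which was not tested. Deposited values summed to 8377232 to 10855996 in the HBC libraries and to 9877606 in the RBC library. The number of reads behind them is unknown. Depth can be judged from the values themselves. For 787 genes with a single annotated transcript and values below 4 in every library, the smallest value was multiplied by transcript length in kilobases. These products had a median of 1.23, and 53.5% of them lay between 0.8 and 1.5. Deposited values are expressed below as approximate read equivalents on that scale, which ignores how reads were shared between similar genes.

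Both groups expressed basal cell markers, but most of these were lower in HBC libraries. Krt5 averaged 18625 ± 369 in HBC libraries (SD, n = 3) and stood at 26488 in the RBC library, and Trp63, the transcription factor of basal cells, averaged 546 ± 12.8 in HBC libraries and stood at 4307 in the RBC library. Of 8 basal cell markers, 0 were called higher in HBC libraries and 6 lower (limma), beside 12.8% and 34.2% of all tested genes. At an unadjusted p under 0.05, 1 was higher and 7 were lower. Leukocytes, in which p200 genes are well known to be expressed, were checked with 29 markers. In the HBC libraries 10 of 29 were listed at 0 throughout, among them Csf1r, Fcer1g, Tyrobp and C1qb, and the pan-leukocyte gene Ptprc was at 0, 0.375 and 0.370. For scale, 15093 to 15308 of all 23281 genes were above 0 in each HBC library, so nothing is read from the count at 0. The 29 markers summed to 3446 to 3627 in the HBC libraries and to 18980 in the RBC library. Ptprc was at 10.5 and Lyz2, the lysozyme of macrophages, at 14770 in the RBC library, against 18.4 to 24.4 for Lyz2 in the HBC libraries. Lyz2 alone thus made up most of the sum of the 29 markers in the RBC library. In the HBC libraries 8 markers averaged 10 or more, led by the lipopolysaccharide receptor gene Cd14 (2591 ± 73.7 in HBC libraries, against 1322 in the RBC library) and the lysosomal gene Cd68 (515 ± 42.6 in HBC libraries, against 65.7 in the RBC library). Cd14 alone made up most of the sum of the 29 markers in each HBC library. Of 27 leukocyte markers tested, 2 were called higher in HBC libraries and 20 lower. Those called higher were Cd68 and Cd53 (40.1 ± 0.289 in HBC libraries, against 6.76 in the RBC library), while Cd14 was not called. The part of these cells in the differences reported here was not tested. Fibroblast markers summed to 44.0 to 66.5 in HBC libraries, against 7707 in the RBC library, and endothelial markers to 1.42 to 2.75 in HBC libraries, against 56.2 in the RBC library. In bulk libraries like these, fewer cells of a type and less RNA per cell cannot be told apart.

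The 8 members summed to 7820, 7425 and 7401 in HBC libraries 1, 2 and 3, against 204 in the RBC library. All 8 were above 10 in each HBC library. In the RBC library 1 member, Ifi202b, was above 10 and 1, Ifi205, was listed at 0. All 8 passed the filter on low values, and all 8 were higher in the HBC libraries, as their choice made likely. As background, the limma test called 47% of 16440 genes in either direction, with 12.8% higher in HBC libraries and 34.2% lower (adjusted p under 0.05 and at least 2-fold). Nothing is read from the members' count beside it. The median log2 difference, HBC minus RBC on the log2(value + 1) scale, was 6.59 over the members and -0.45 over all tested genes.

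**Figure D1:**
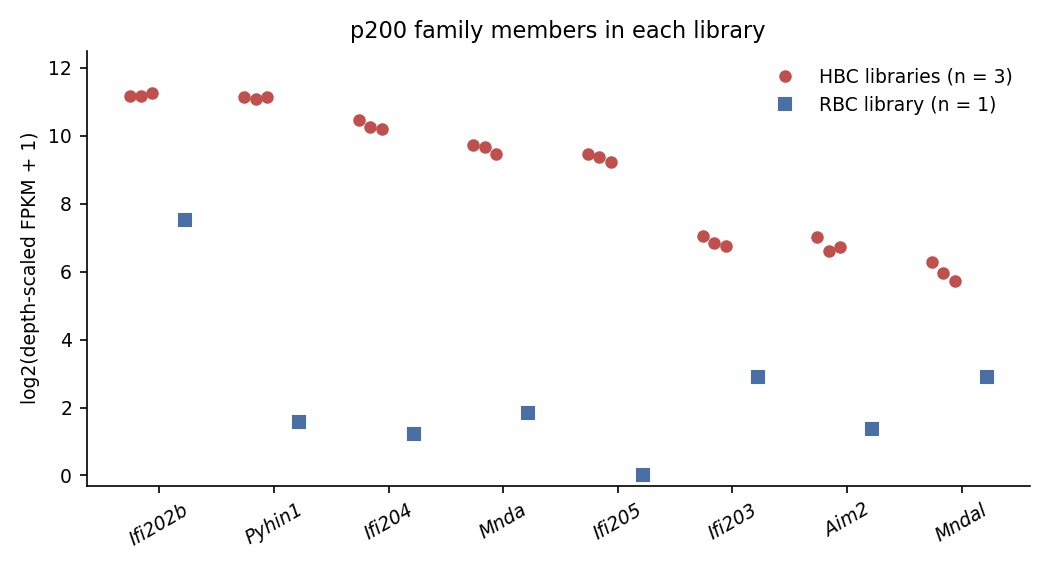
Depth-scaled FPKM of the 8 p200 family members on a log2(value + 1) axis, with 3 HBC libraries (red circles, libraries 1 to 3 from left to right) and the RBC library (blue squares), ordered by HBC mean. Every HBC library lies above the RBC library for every member, and Ifi202b (184) is the only member above 10 in the RBC library.

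The DNA sensors were expressed in the cultures at very different levels. Aim2 is the cytosolic receptor that assembles an inflammasome, a complex that activates caspase 1, on double-stranded DNA. It was at 128, 95.5 and 104 in HBC libraries 1, 2 and 3, against 1.59 in the RBC library. The HBC values were modest beside those of other members, and the RBC value amounted to about 3.89 read equivalents.

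Ifi204 encodes p204, a mouse counterpart of human IFI16 that signals from DNA through the adaptor STING. It was at 1397, 1213 and 1162 in the HBC libraries, against 1.33 in the RBC library. The RBC value came to about 2.63 read equivalents, whereas the lowest HBC value came to about 2201. The log2 difference was 9.07, and no ratio is given against a value this close to single reads.

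Pyhin1 is related to human IFIX, a nuclear protein that binds viral DNA. It was at 2243, 2152 and 2255 in the HBC libraries, against 1.97 in the RBC library, a log2 difference of 9.55. The HBC level placed it 726th of all listed genes by mean, while the RBC value placed it 15941st in that library. The coefficient of variation of its 3 HBC values was 2.54%.

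Ifi202b encodes p202, a member without a pyrin domain that is known in mouse cells to bind DNA and to restrain the Aim2 inflammasome. It was at 2291, 2316 and 2428 in the HBC libraries, against 184 in the RBC library, a ratio of 12.8. The RBC value was far above single reads, at about 269 read equivalents. It made up 90.0% of the summed member values in the RBC library, against 31.1% of the mean sum in the HBC libraries. Ifi202b is known as a gene whose expression differs widely between mouse strains. The strain of the animals is not in the labels, and its part in this difference was not tested.

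Ifi205 encodes p205, known in mouse macrophages to regulate the inflammasome adaptor gene Pycard. It was at 703, 667 and 593 in the HBC libraries and was listed at 0 in the RBC library. Mnda, named after a myeloid nuclear antigen of human cells, was at 848, 805 and 700.3 in the HBC libraries, against 2.56 in the RBC library. The HBC ranges of Mnda and Ifi205 overlapped, and both were at or below about 3.94 read equivalents in the RBC library.

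Ifi203, a nuclear member, was at 132, 114 and 106 in the HBC libraries, against 6.51 in the RBC library, a ratio of 18.1. Mndal, named for its likeness to Mnda, was at 77.6, 61.2 and 51.9 in the HBC libraries, against 6.52 in the RBC library, a ratio of 9.75. These were, with Ifi202b, the members with at least 10 read equivalents in the RBC library, at about 21.1 for Ifi203 and 11.4 for Mndal.

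Since FPKM is per length, the members can be ranked against each other. The order of the HBC means was Ifi202b (2345 ± 72.9), Pyhin1 (2217 ± 56.2), Ifi204 (1257 ± 124), Mnda (784 ± 75.8), Ifi205 (655 ± 56.3), Ifi203 (118 ± 13.0), Aim2 (109 ± 16.7) and Mndal (63.6 ± 13.0; SD, n = 3 for each). Neighbours in that order with overlapping HBC ranges were Mnda with Ifi205 and Ifi203 with Aim2. Ifi202b and Pyhin1 did not overlap but differed by a factor of only 1.06. The largest step was between Ifi205 and Ifi203, a factor of 5.57, which left 5 members at 593 or more and 3 at 132 or less in every HBC library. The order in the RBC library was different, with Mndal and Ifi203 next after Ifi202b.

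The split of reads among these genes is uncertain because their transcripts share sequence. For each gene, every window of 50 bases in its longest coding transcript (GENCODE M21, GRCm38) was looked up in the transcripts of all other genes. The labels give no read length, so windows of 100 bases were also used. No 50-base window of Ifi202b and 0.932% of those of Aim2 occurred in another gene. Mnda shared 72.9% of its 50-base windows with other genes and 44.6% with Ifi205 in particular, and Ifi205 shared 49.6%. With 100 bases, Mnda and Ifi205 still shared 56.9% and 41.5%. Pyhin1 shared 35.1% of 50-base windows, nearly all with Ifi214, a cluster gene that is not listed under that name in the table. Ifi204 shared 30.2%, Mndal 27.2% and Ifi203 10.9%. These shares describe annotated transcripts of GRCm38, and the reads behind the deposited mm9 values were not examined. How reads were split between Mnda and Ifi205 is uncertain.

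**Figure D2:**
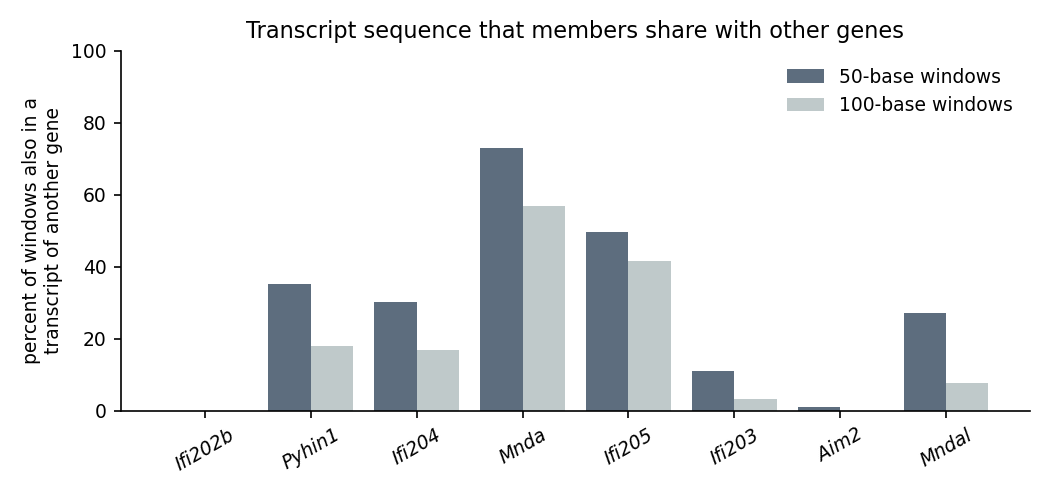
Percentage of 50-base (dark) and 100-base (light) windows of each member's longest coding transcript that also occur in a transcript of another gene. Mnda (72.9% at 50 bases) and Ifi205 (49.6%) share the most, and Ifi202b shares none.

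The HBC libraries were not used against each other in choosing the members, and in depth-scaled values the family split. On that scale 6 of the 8 members were highest in HBC library 1, and Ifi202b and Pyhin1 were highest in library 3. The coefficient of variation was 3.11% for Ifi202b and 2.54% for Pyhin1, below or close to the median of genes within 2-fold of their level (3.22% and 3.20%). It was 9.83% for Ifi204, 9.66% for Mnda and 8.60% for Ifi205, at percentiles 96.4, 95.7 and 92.7 among genes within 2-fold of their level. Aim2 (15.3%) and Mndal (20.4%) were at percentile 94.1 each, and Ifi203 (11.1%) was at percentile 87.1. Of 41 interferon-stimulated genes averaging at least 10, 28 were also highest in HBC library 1, against 36.2% of all 11704 genes at that level. Both the spread and the library in which a gene is highest depend on the scaling. As deposited, Pyhin1 was at 1891, 2257 and 2406 in HBC libraries 1, 2 and 3, and Ifi204 at 1178, 1272 and 1239. Pyhin1 thus had the wider spread of these members before scaling, and the split above holds for depth-scaled values only. With values as deposited, 1 of the 8 members and 1 of the 41 interferon-stimulated genes were highest in library 1, against 1.71% of all genes.

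**Figure D3:**
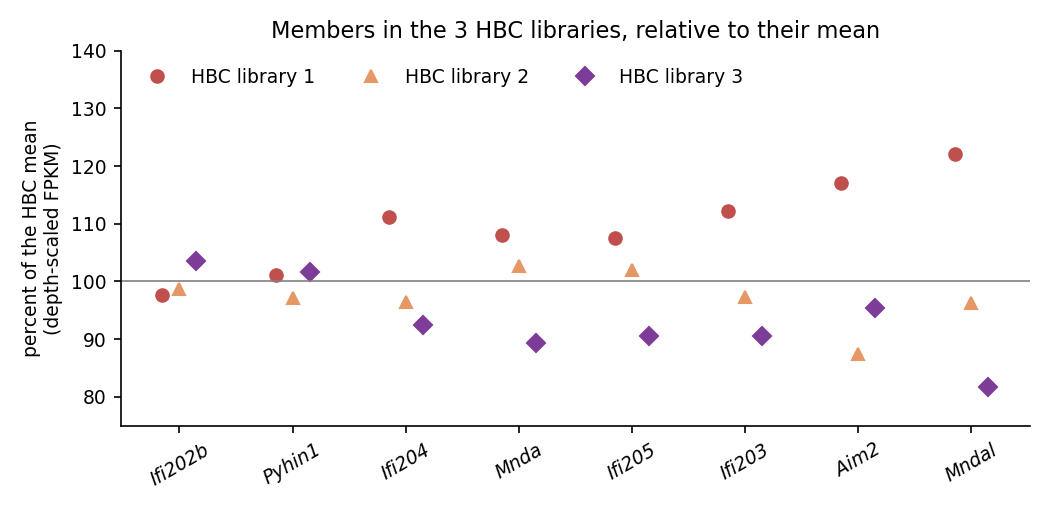
Depth-scaled FPKM of each member in HBC libraries 1 (circles), 2 (triangles) and 3 (diamonds) as a percentage of the mean of the 3, with members ordered by HBC mean. Library 1 is the highest for 6 members, while Ifi202b and Pyhin1 vary by 3.11% and 2.54%.

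The further p200 genes of the table were also higher in the cultures. AI607873 was at 107, 103 and 111 in the HBC libraries, against 2.82 in the RBC library (limma adjusted p = 0.000359). Pydc3 was at 19.2, 16.7 and 18.8 in the HBC libraries and Pydc4 at 19.6, 12.9 and 14.4, and both were listed at 0 in the RBC library (limma adjusted p = 0.000707 for Pydc3 and 0.00408 for Pydc4). BC094916, fixed on the same list but matched to no RefSeq gene here, was at 48.9, 42.6 and 31.3 in the HBC libraries and at 0 in the RBC library (limma adjusted p = 0.00301). In all, 4 of 4 were called higher in HBC libraries, beside 12.8% of all tested genes. For the 3 at 0 in the RBC library the low-value filter was passed through the HBC libraries alone, and no support is drawn from their calls.

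The genes on either side of the cluster were low in the cultures. In the RefSeq gene order of GRCm38.p6, the members span 13 protein-coding genes from Aim2 to Ifi205, of which 11 were listed in the table by a matching name. The 10 nearest listed genes, 5 on each side, all averaged below 10 in the HBC libraries. Of all 23281 listed genes, 11704 averaged at least 10 there, so a low level is common. On the Aim2 side these were Fcer1a, Olfr418-ps1, Mptx2, Darc and Cadm3. The immunoglobulin-family adhesion gene Cadm3, next to Aim2, averaged 0.311 ± 0.355 in the HBC libraries and stood at 13.8 in the RBC library, a log2 difference of -3.53 (limma adjusted p = 0.00857). The limma adjusted p was 0.0524 with HBC library 2 left out, 0.222 under quantile normalization (log2 difference -1.59) and 0.0587 with a pseudocount of 0.1. On the Ifi205 side were 5 odorant receptor genes, Olfr433, Olfr432, Olfr430, Olfr429 and Olfr427, of which 3 were listed at 0 in all 4 libraries.

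**Figure D4:**
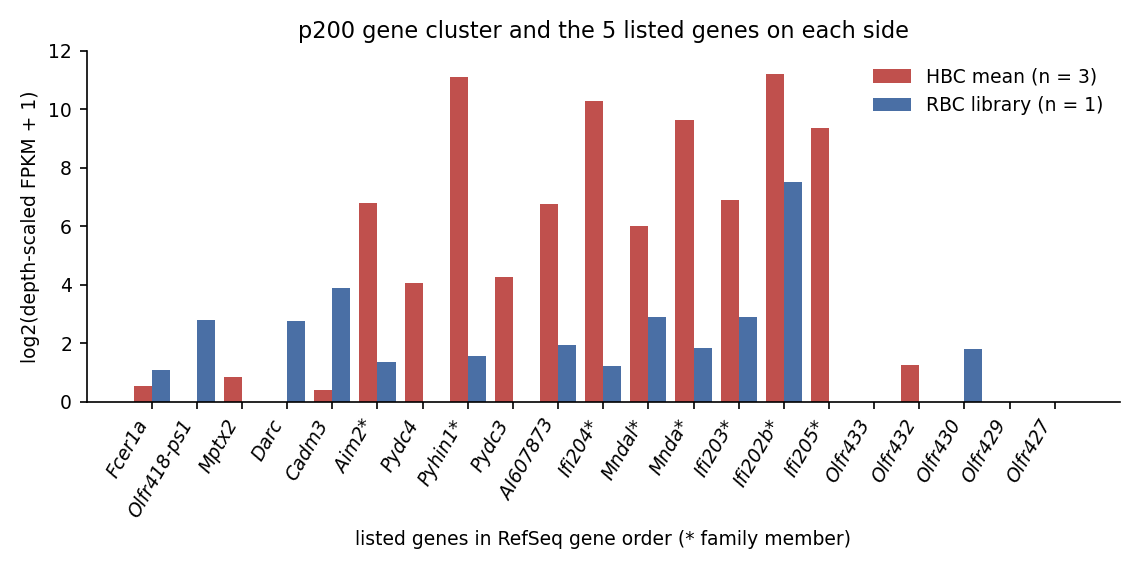
HBC mean (red, n = 3) and RBC value (blue, n = 1) on a log2(depth-scaled FPKM + 1) axis for the listed genes of the p200 cluster and 5 listed genes on each side, in RefSeq gene order, with members starred. The 11 cluster genes are higher in HBC libraries, and the 10 flanking genes average below 10 there.

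The genes that carry the interferon signal were then compared, by fixed lists, in the same limma test of all genes. Interferon genes themselves were mostly not detected. Of 12 interferon genes, 10 were listed at 0 in all 4 libraries. The exceptions were Ifnb1, interferon beta (2.04, 6.53 and 1.64 in the HBC libraries and 0 in the RBC library, not called), and Ifnl2, an interferon lambda gene (0, 2.43 and 0 in the HBC libraries and 0 in the RBC library). Of 6 receptor chains, 1 was called higher in HBC libraries. This was Ifngr2, a chain of the interferon gamma receptor (1097 ± 55.4 in HBC libraries, against 265 in the RBC library, limma adjusted p = 0.00116). Of the type I receptor chains, Ifnar1 averaged 186 ± 6.24 in HBC libraries, against 201 in the RBC library, and Ifnar2 averaged 606 ± 14.5 in HBC libraries, against 646 in the RBC library.

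Of 18 genes for JAK kinases, STAT and IRF factors and their regulators, 3 were called higher in HBC libraries and 3 lower, beside 12.8% and 34.2% of all tested genes, and the list's median log2 difference was -0.10. Irf7, the factor that amplifies the interferon response, was at 1511 ± 78.8 in HBC libraries, against 177 in the RBC library (8.52-fold, limma adjusted p = 0.000607). Usp18, a protease that damps type I receptor signalling, was 10.5-fold higher (1684 ± 145 in HBC libraries, against 161 in the RBC library). Irf9, a transcription factor of the type I interferon response, was at 762 ± 12.4 in HBC libraries, against 441 in the RBC library, short of the 2-fold threshold. Setting the library medians equal brought it past that threshold (log2 difference 1.03). The genes called lower in HBC libraries were Socs3 (25.9 ± 2.52 in HBC libraries, against 2820 in the RBC library), Irf1 (285 ± 14.9 in HBC libraries, against 1211 in the RBC library) and Stat3 (290 ± 4.88 in HBC libraries, against 1077 in the RBC library), a factor of the interleukin 6 response.

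Interferon-stimulated genes outside the p200 family were mostly higher in the cultures. Of 41 tested, 34 were called higher in HBC libraries, 0 were called lower and 7 were not called, beside 12.8% and 34.2% of all tested genes. At an unadjusted limma p under 0.05 and no minimum fold, 38 were higher and again 0 lower. The list's median log2 difference was 2.30, beside -0.45 for all tested genes. Oasl1, a member of the oligoadenylate synthetase family, averaged 662 ± 13.8 in HBC libraries and stood at 4.82 in the RBC library (limma adjusted p = 1.62e-05). Oas3, which makes the messenger that activates RNase L, averaged 152 ± 2.59 in HBC libraries and stood at 1.43 in the RBC library. Ifit3 averaged 3824 ± 199 in HBC libraries and stood at 44.4 in the RBC library. The ubiquitin-like modifier Isg15 was 13.1-fold higher (5930 ± 208 in HBC libraries, against 452 in the RBC library), Ifit1 21.0-fold higher (2428 ± 33.4 in HBC libraries, against 116 in the RBC library) and the GTPase gene Mx1 6.51-fold higher (699 ± 59.5 in HBC libraries, against 107 in the RBC library). The list was not uniform. Ifi27l2a was at 3084 ± 298 in HBC libraries, against 2909 in the RBC library, and the immunoproteasome gene Psmb8 at 357 ± 57.0 in HBC libraries, against 383 in the RBC library, both named after their values were seen.

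**Figure D5:**
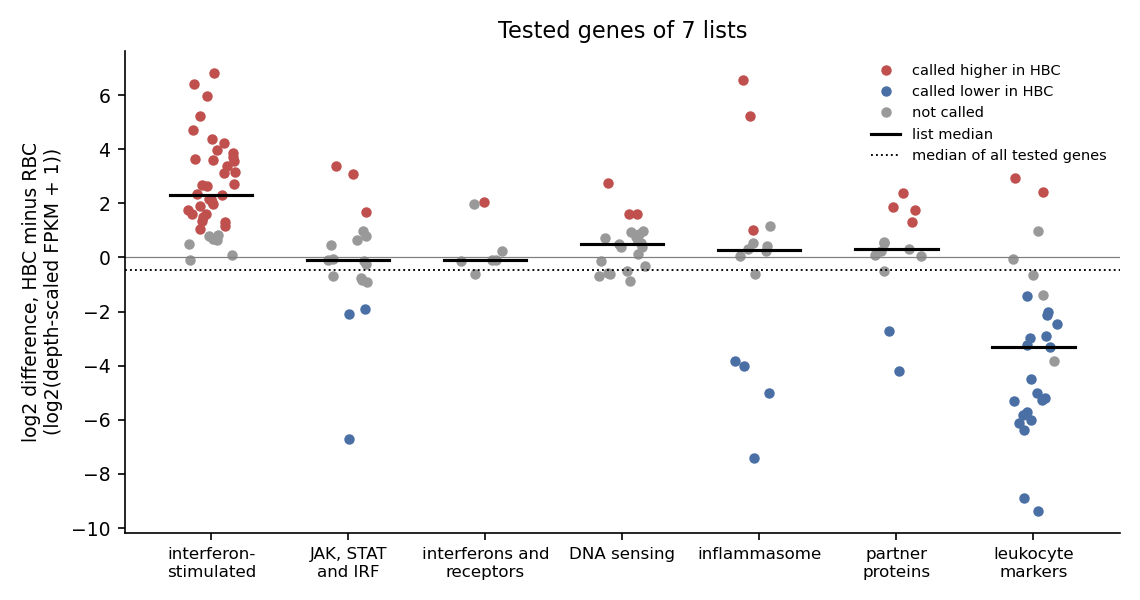
Log2 difference, HBC minus RBC, of each tested gene in 7 lists, coloured by the limma call (red higher in HBC, blue lower in HBC, grey not called), with each list's median (bar) and the median of all tested genes (dotted line, -0.45). Interferon-stimulated genes lie mostly above 0 (median 2.30), and leukocyte markers mostly below (median -3.30).

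Of 21 tested genes of DNA sensing and its limits, 3 were called higher in HBC libraries and 0 lower by limma, beside 12.8% and 34.2% of all tested genes. The share called higher, 14.3%, was near that of all genes. At an unadjusted p under 0.05 and no minimum fold, 13 were higher and 5 lower. Those called were Tmem173, which encodes STING (749 ± 28.3 in HBC libraries, against 111 in the RBC library, 6.76-fold, limma adjusted p = 0.000414), the kinase Ikbke (552 ± 25.3 in HBC libraries, against 178 in the RBC library) and Mb21d1, which encodes the DNA sensor cGAS (45.8 ± 5.07 in HBC libraries, against 14.1 in the RBC library). The count became 7 with medians set equal and 6 under quantile normalization. Leaving out HBC library 2 ended the call of Mb21d1 (limma adjusted p = 0.0522).

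Of 14 inflammasome genes tested, 3 were called higher in HBC libraries and 4 lower, or 21.4% and 28.6%, not far from the 12.8% and 34.2% of all tested genes. Pycard, the adaptor that joins Aim2 to caspase 1, was at 368 ± 14.5 in HBC libraries, against 293 in the RBC library and was not called. Casp1, the protease itself, was at 5.31, 6.39 and 6.34 in the HBC libraries, against 223 in the RBC library (limma adjusted p = 0.000894). Gsdmd, the pore-forming substrate of caspase 1, was at 6.64, 7.10 and 5.28 in the HBC libraries, against 117 in the RBC library (limma adjusted p = 0.00220). The cytokine gene Il1b and the sensor gene Nlrp3 were listed at 0 in all 3 HBC libraries and stood at 171 and 13.1 in the RBC library. Il1a, which encodes a cytokine that needs no caspase 1, was at 1650 ± 101 in HBC libraries, against 16.6 in the RBC library, and its receptor antagonist Il1rn was at 1156 ± 40.2 in HBC libraries, against 29.9 in the RBC library. Il18 was 2.05-fold higher (121 ± 7.58 in HBC libraries, against 58.8 in the RBC library), but fell under the 2-fold minimum with values as deposited (log2 difference 0.91), with equal column sums (0.92) and with a pseudocount of 5 (0.98). Most tested markers of leukocytes, which express Casp1, Il1b and Nlrp3, were higher in the RBC library as given above. Cd14, Cd68 and Cd53 were lower there. The part of leukocytes in these differences was not tested.

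Of 13 genes for proteins known to bind p200 proteins or to act with them in growth control, 4 were called higher in HBC libraries and 2 lower, beside 12.8% and 34.2% of all tested genes. The ubiquitin ligase Mdm2, which human IFIX is known to destabilize, was 3.64-fold higher (1935 ± 52.8 in HBC libraries, against 532 in the RBC library), and the cell cycle factor E2f1 was 5.27-fold higher (235 ± 12.9 in HBC libraries, against 44.7 in the RBC library). Brca1 (57.4 ± 4.31 in HBC libraries, against 16.2 in the RBC library) and Myc were the others. Id1 and Id3, inhibitors of differentiation factors that p204 is known to bind, were called lower. Id1 averaged 404 ± 76.9 in HBC libraries, against 2623 in the RBC library, and Id3 averaged 69.0 ± 14.9 in HBC libraries, against 1274 in the RBC library. Rb1, the retinoblastoma gene, was at 161 ± 2.21 in HBC libraries, against 138 in the RBC library and was not called.

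The genes nearest to the members' mean profile over the 4 libraries, by Euclidean distance of centred log2(value + 1) values among 11696 genes averaging at least 10 in HBC libraries, were Il1a (distance 0.0785), I830012O16Rik (0.113), Ifit3 (0.153), Tnip3 (0.187) and H2-T9 (0.190). RefSeq names I830012O16Rik as Ifit3b, so its reads may be shared with Ifit3. It was at 2142, 1890 and 1959 in the HBC libraries, against 22.5 in the RBC library. Tnip3 was at 427, 392 and 428 in the HBC libraries, against 3.89 in the RBC library, and H2-T9 was at 337, 330 and 345 in the HBC libraries, against 2.79 in the RBC library. The members themselves lay between 0.956 (Aim2) and 2.96 (Mndal) from their own mean profile. With 1 RBC library, this likeness mostly measures the size of the step between the groups.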

How the data were processed

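The authors deposited 1 table of values named FPKM, 1 per gene symbol and library. Per the submitters' processing notes, mm9, STAR, Cuffnorm and Cufflinks 2.2.1 were used, with no role or order stated. The annotation, strand setting, filters and read numbers are unknown, so no counting interval is given. Deposited FPKM values appeared to carry library depth and were divided by median-of-ratios factors from 11134 genes with at least 10 in every library (0.843, 1.05 and 1.07 in HBC libraries 1 to 3, and 1.06 in RBC).

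Genes whose HBC mean and RBC value averaged at least 1 (16440 of 23281) were fitted as log2(value + 1) with limma 3.58.1 in R 4.3.3 (lmFit, eBayes with a trend; two-sided; Benjamini-Hochberg adjustment over all tested genes). Calls needed an adjusted p under 0.05 and at least 2-fold. Only the 3 HBC libraries contribute to the variance, so the RBC library is assumed to vary as they do. Differences on the log2 scale understate low genes. Folds are ratios of scaled values, given for a member only from 10 read equivalents in the RBC library, a limit set after the values were seen. No p-value is printed for genes at 0 in all HBC libraries, and a listed 0 can be a failed estimate.

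Members, lists and tests were chosen with earlier results of these data known. Named genes were the members, in each list the 3 with the largest called difference in each direction, defining genes, the 5 nearest profiles and 5 listed genes on each side of the cluster. No values are given for some markers that this rule chose, though they count among the named genes below. These were Dlk2 and Krt15 of basal cells, H2-Aa and Cd74 of leukocytes, Col1a1, Dcn and Col1a2 of fibroblasts. Emcn, Vwf and Pecam1 of endothelial cells were others. Outside this rule, Ifnb1, Ifnl2, Ifnar1, Ifnar2, Nlrp3, Rb1, Myc, Csf1r, Fcer1g, Tyrobp, C1qb, Cd14, Ifi27l2a, Psmb8 and Pydc4 were named after their values were seen. The limma procedure was tested on simulated data in which all 4 libraries varied as the HBC libraries do. That simulation cannot check whether the RBC library varies as they do. The result for 1 gene of these lists is not reported here. The counts of shared transcript windows were added after the values were seen, in place of a planned protein comparison that was not made.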

Additional observations from a re-analysis of the deposited data

How the results depend on the processing

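Both the scaling and the pseudocount moved values. Of called genes, 27.2% were higher in HBC libraries, against 36.4% with equal medians and 54.0% under quantile normalization, where 3586 genes were called higher and 3049 lower. The median log2 difference of all tested genes moved by 0.25 with equal medians and by 0.58 under quantile normalization, to 0.13, and was shifted by -0.11 with values as deposited and -0.10 with equal column sums. The median of the 8 members stood 7.04 above that of all genes, and 6.97 to 7.50 above it under these 4 scalings. It was itself 6.59, 6.77 with equal medians, 7.63 under quantile normalization, 7.10 with a pseudocount of 0.1, 5.40 with a pseudocount of 5, and 6.54 to 6.64 with 1 HBC library left out. No member changed sign in any of the 11 alternatives, as their choice on this contrast made likely. No support is drawn from that or from the distance of their median to that of all genes. The ranges were 8.32 to 10.43 for Pyhin1, 7.64 to 9.80 for Ifi204 and 7.04 to 12.67 for Ifi205. They were 3.55 to 3.91 for Ifi202b and 2.56 to 4.59 for Mndal. Counts called higher in HBC libraries became 2 interferon and receptor genes (quantile normalization, and a pseudocount of 0.1), 5 JAK, STAT and IRF genes (equal medians and quantile normalization), 7 and 6 DNA-sensing genes (equal medians and quantile normalization) and 7 inflammasome genes (quantile normalization). Counts called lower became 1 DNA-sensing gene with no filter, 12 leukocyte markers under quantile normalization, and, for the 5 endothelial markers, 2 under quantile normalization and 3 with a pseudocount of 0.1 or a minimum of 5. The cause of these changes was not tested. Leaving out 1 HBC library gave 2004 to 2040 genes called higher and 4932 to 5012 lower, and 34 interferon-stimulated genes each time. Over 55 named genes with a test, 587 of 599 recomputed calls were unchanged, 11 were lost and 1 was gained. No paired analysis was possible because nothing in the labels pairs an HBC library with the RBC library.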
